A study of Mus musculus with 6 samples.

Results

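The T-box genes encode transcription factors that share a DNA-binding domain named after Brachyury, and 10 of them were followed here by symbol: Tbx1, Tbx2, Tbx3, Tbx4, Tbx5, Tbx6, Tbx15, Tbx18, Tbx19 and Tbx20. They are 10 of the 23337 gene symbols counted in each library. The data were 3 Insm1-KO libraries and 3 Insm1-Het libraries of mouse cochlear outer hair cells, all taken at E18.5. Cells of both genotypes were sorted by fluorescence from a GFP-Cre allele at Insm1, so the Het cells carry that allele too and are no wild type. Nothing in the labels tells whether a library is an animal, a pool or a litter, and p-values here measure the spread between libraries, which may be technical.

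Outer hair cells amplify sound and inner hair cells pass the signal to the auditory nerve. In the mouse cochlea Tbx2 is known as the factor that inner hair cells need to acquire and keep their identity, while Insm1, a zinc-finger repressor made for a short time in new outer hair cells, keeps inner hair cell genes off in them. Tbx2 and its close relative Tbx3 act mainly as repressors. Most other T-box genes are known from mesoderm, limb, heart or neural tissue rather than from hair cells.

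The KO libraries held 9259736, 7705177 and 9748629 counts (replicates 1 to 3) and the Het libraries 11738214, 10721902 and 12427039. A level of 3 counts, used here as the floor, was thus 0.32 to 0.391 CPM in KO and 0.237 to 0.281 CPM in Het libraries. For a count of 0, the exact 95% counting interval reached somewhat further, to 0.394, 0.481 and 0.411 CPM in KO replicates 1 to 3. CPM values are counts scaled to library size with TMM factors. Insm1 itself stood at 78.7, 60.3 and 18.7 CPM in the KO libraries, against 109.3, 116.2 and 69.2 CPM in the Het libraries. The groups overlapped, since KO replicate 1 lay above Het replicate 3, and which part of the gene the allele removes is not given in the sources used here. Hair cell markers (10 genes, among them Myo7a, Myo6 and Pou4f3) summed to between 10059 and 11482 CPM in KO and between 10046 and 10507 CPM in Het libraries. Myo6 alone made up 4849 to 5174 CPM of the sum in KO and 4869 to 5210 CPM in Het libraries. Single markers differed from the sum: Atoh1 had all KO libraries above all Het libraries, and Gfi1 and Lhx3 had all below. Of the 11714 genes tested below, 5.08% lay all above and 6.1% all below.

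Of the 10 T-box genes, Tbx2 alone was counted in all 6 libraries, and it was far higher in the KO libraries. Tbx18 was counted in a single Het library, and Tbx6 and Tbx15 had at most 3 counts in any library. Tbx1, Tbx3, Tbx4, Tbx5, Tbx19 and Tbx20 had 0 counts in all 6 libraries. These 6 of 10 genes (60%) stand beside 32.9% of all symbols with 0 counts throughout. Only Tbx2 passed the filter on low counts (filterByExpr, minimum count 10), which 11714 symbols passed, and it passed through the KO libraries alone: its highest Het count was 8. A gene kept in that way had to differ in these data, so its passing the filter supports nothing.

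**Figure D1:**
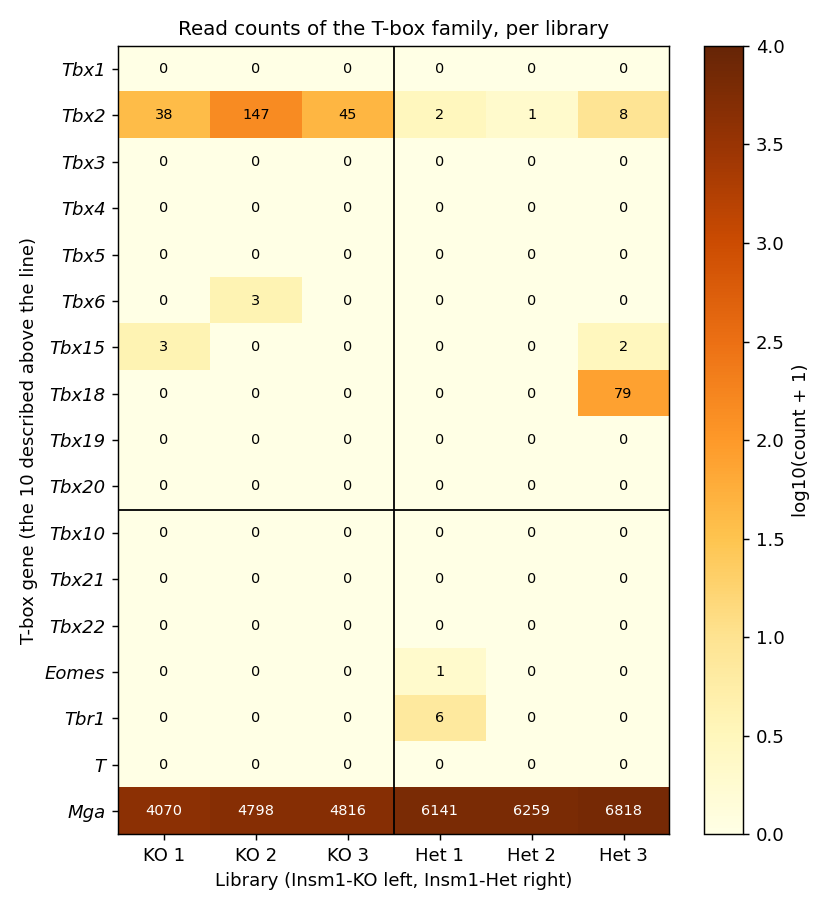
Read counts of the 17 T-box genes in each library, KO columns on the left and Het columns on the right, shaded by log10(count + 1), with the 10 genes followed here above the line. Tbx2 holds 38, 147 and 45 counts in KO and 2, 1 and 8 in Het libraries; Mga, below the line, has at least 4070 counts in every library.

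Tbx2 occupies 85832551 to 85841948 of chromosome 11 (GRCm38, plus strand), and no other annotated gene overlaps it in GENCODE release M21. It had 38, 147 and 45 counts in KO replicates 1, 2 and 3, against 2, 1 and 8 counts in Het replicates 1, 2 and 3. In CPM that was 4.06, 19.2 and 5.01 in KO libraries and 0.163, 0.0937 and 0.632 in Het libraries. The groups did not overlap: KO replicate 2 stood above the other KO libraries, and the highest Het library, replicate 3, stood below the lowest KO library. The exact 95% counting interval of the lowest KO library, 2.87 to 5.57 CPM, did not reach that of the highest Het library, 0.273 to 1.25 CPM. These intervals cover counting error only, since reads were amplified and carry no molecular identifiers.

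**Figure D2:**
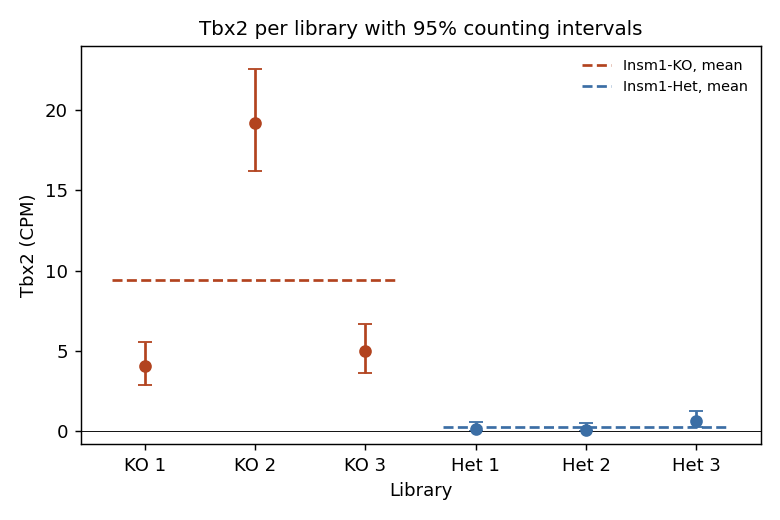
Tbx2 in CPM in each library (points), with exact 95% counting intervals (bars) and the mean of each genotype (dashed lines). The KO libraries sit at 4.06, 19.2 and 5.01 CPM, all above the Het libraries, which reach at most 0.632 CPM.

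Tbx2 averaged 9.41 ± 8.47 CPM in KO libraries and 0.296 ± 0.293 CPM in Het libraries (SD, n = 3 each), a ratio of means of 31.8. Its fitted log2 fold change was 4.92 (SE 1.62, 95% interval 1.44 to 8.41). The SD in KO libraries was almost as large as the mean, and 63.9% of the 230 KO counts of Tbx2 came from KO replicate 2. Adjusted by Benjamini-Hochberg over all tested genes, the quasi-likelihood p of edgeR was 0.918 (0.0091 unadjusted), so Tbx2 did not pass. For its CPM values the exact permutation test (two-sided) gave p = 0.1, the smallest value that 3 against 3 libraries allow. Since Tbx2 entered the fit through the KO libraries, its unadjusted p is given as a description.

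No gene passed that threshold: edgeR called 0 of 11714 genes (0.0%), with 626 (5.34%) at an unadjusted p under 0.05, of which 3.19% of all genes were higher and 2.15% lower in KO. DESeq2 called 26 genes and limma-voom 0 (606 at an unadjusted p under 0.05), and neither called Tbx2. All 3 KO libraries lay above all 3 Het libraries in 5.08% of tested genes and below them in 6.1%, so the lack of overlap seen for Tbx2 is one of 595 such cases. Leaving out KO replicate 2 lowered the log2 fold change of Tbx2 to 3.89 (unadjusted p = 0.0891 in edgeR's quasi-likelihood test) and the difference of mean CPM to 4.24, from 9.12 with all libraries. Leaving out Het replicate 3 raised the log2 fold change to 6.06. In sorted bulk samples, more cells with Tbx2 and more Tbx2 RNA per cell cannot be told apart.

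**Figure D3:**
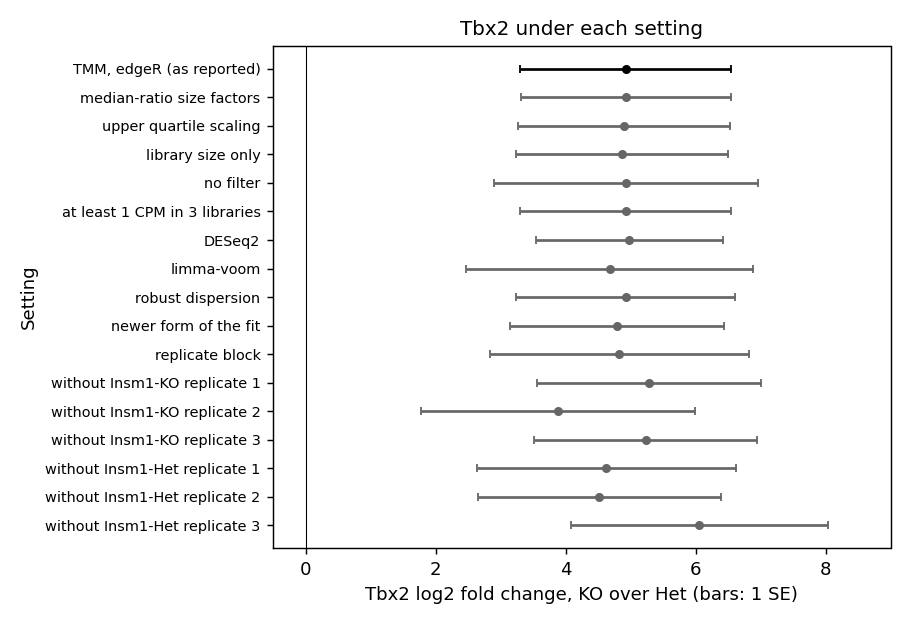
Log2 fold change of Tbx2, KO over Het, with all libraries in edgeR (top) and under each other setting (points, with bars of 1 SE). All points lie above 0, between 3.89 without KO replicate 2 and 6.06 without Het replicate 3. With groups that did not overlap, leaving out 1 library could not turn the direction.

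The level of Tbx2 was low even in KO libraries. Per kilobase of annotated exon, Tbx2 reached 2.60 CPM in KO and 0.0817 CPM in Het libraries, while Insm1 reached 17.0 CPM per kilobase in KO and 31.7 in Het libraries. By average abundance over the 6 libraries, 11.3% of tested genes were below Tbx2. The next highest of the 10 genes, Tbx18, reached 0.441 CPM per kilobase as a mean over Het libraries, all of it from a single library. Tbx6 and Tbx15 averaged 0.0723 and 0.0285 CPM per kilobase in KO libraries, from 3 counts each.

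Tbx18, a factor of the mesenchyme around the mouse otic capsule, lies on the minus strand of chromosome 9 (87702800 to 87731260). It had 0 counts in all 3 KO libraries and 0, 0 and 79 counts in Het replicates 1, 2 and 3, or 6.24 CPM (exact 95% counting interval 4.94 to 7.78) in the last. The KO libraries and the other two Het libraries were thus alike at 0, and the genotypes overlapped. The transcript D030062O11Rik is annotated on the opposite strand within Tbx18, so with no strand setting given the count is uncertain to that extent. Tbx15, a factor of dermis and skeleton, had 3, 0 and 0 counts in KO and 0, 0 and 2 counts in Het libraries. Tbx6, which acts in paraxial mesoderm, had 0, 3 and 0 counts in KO libraries and 0 in each Het library. Both stayed at or under the floor of 3 counts, and no fold is given.

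Het replicate 3, the library with Tbx18, also had the highest sums of the mesenchyme and greater epithelial ridge markers, though not of every marker on these lists. The 9 mesenchyme markers summed to 225 to 335 CPM in KO libraries, against 238, 314 and 427 CPM in Het replicates 1, 2 and 3. Of these 9, 5 were highest in Het replicate 3. Prrx1, a mesenchyme factor, had 22 counts there and at most 1 elsewhere. The collagen genes did not follow: Col1a1 was highest in Het replicate 2 (184 counts, against 29 in Het replicate 3), and Col1a2 and Col3a1 were highest in KO replicate 1. Twist1 had 0 counts in every library. Pdgfra, the most abundant of the list, had 1575 to 2563 counts in KO and 2767 to 4417 counts in the deeper Het libraries. Scaled to CPM, the groups overlapped for Pdgfra. Of the 7 markers of the ridge, the epithelium beside the inner hair cells, 4 were highest in Het replicate 3. Epyc, one of the 4, had 44, 0 and 45 counts in KO and 90, 0 and 1189 counts in Het libraries. Calb1 was lowest in Het replicate 3, Otoa highest in Het replicate 2 and Gjb6 highest in Het replicate 1. The 7 ridge markers summed to 609 to 1058 CPM in KO and 540, 614 and 1244 CPM in Het libraries. The part of such cells in the Tbx18 count was not tested.

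The 6 genes at 0 counts include known regulators of other organs. Tbx1 acts in the pharynx and the early mouse otocyst, Tbx4 and Tbx5 in hindlimb and forelimb, Tbx19 in pituitary corticotropes and Tbx20 in the heart. Tbx3, the closest relative of Tbx2, lies beside Tbx5 on chromosome 5. Expression near or below the 3-count level stated above could have been missed at this depth in any of them. Tbx2 therefore carried 92.7%, 98.0% and 100% of the counts of the 10 genes in KO replicates 1, 2 and 3, and 100%, 100% and 8.99% in Het replicates 1, 2 and 3. Summed over the 10 genes, the level was 4.38, 19.6 and 5.01 CPM in KO and 0.163, 0.0937 and 7.03 CPM in Het libraries. The sums overlapped between genotypes, because the Tbx18 of Het replicate 3 exceeded the whole sum of KO replicates 1 and 3. The difference of mean sums was 7.22 CPM, and 2.26 CPM without KO replicate 2.

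Of the 7 further members of the family, Mga was the abundant one. Mga, which combines a T-box with a Max-binding domain and belongs to a Polycomb-type repressor complex, lies on chromosome 2 (119897228 to 119969581, plus strand). It stood at 434.5, 625.8 and 535.9 CPM in KO and 500.1, 586.2 and 538.9 CPM in Het libraries. The groups overlapped, the log2 fold change was -0.03 (SE 0.21, 95% interval -0.47 to 0.42), and it did not pass (edgeR, Benjamini-Hochberg adjusted p = 0.996). Its sign turned without KO replicate 1 (0.10) or Het replicate 2 (0.03). Per kilobase of exon, Mga was at 34.7 CPM in KO and 35.3 CPM in Het libraries, above Tbx2 in both. Tbr1, a factor of cortical neurons, had 6 counts and Eomes 1 count in Het replicate 1, and both had 0 elsewhere. Tbx10, Tbx21, Tbx22 and T (Brachyury itself) had 0 counts in all 6 libraries, so 10 of the 17 family members were not counted at all.

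Among the genes known from inner hair cells, Tbx2, Brip1 and Rprm had all KO libraries above all Het libraries, and the other tested genes overlapped between genotypes. Of the 13 on the list, 8 were tested and 0 passed in either direction over all genes. These same 3 genes had an unadjusted p under 0.05 and were higher in KO, beside 3.19% of all tested genes, and the lack of overlap stands beside 5.08%. The median log2 fold change of the 8, Tbx2 included, was -0.02, beside 0.02 over all tested genes. Tbx2 and Brip1 passed the filter through the KO libraries, and the list had been drawn up knowing earlier results of these libraries, so these counts are a description and not independent evidence. Brip1, a helicase of the Fanconi anaemia pathway, had 719, 675 and 3788 counts in KO and 6, 0 and 75 counts in Het libraries. Its highest library was KO replicate 3, not replicate 2 as for Tbx2, and in both genes Het replicate 3 was the highest Het library. Rprm, the cell cycle inhibitor Reprimo, was at 323.5, 512.2 and 282.3 CPM in KO and 232.9, 189.1 and 206.8 CPM in Het libraries. Its groups did not overlap, and its highest library was KO replicate 2, as for Tbx2 (log2 fold change 0.83, SE 0.27).

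Fgf8, a signal sent by inner hair cells to the cells around them, had 87, 0 and 42 counts in KO and 0 in every Het library. The KO library without Fgf8 was replicate 2, the one with the most Tbx2. Slc17a8, which loads glutamate into synaptic vesicles, had 18, 0 and 0 counts in KO and 6, 0 and 15 counts in Het libraries, and Cabp2, a calcium sensor of the synapse, had 14 counts in KO replicate 1 and 0 elsewhere. Atp2a3 had at most 2 counts in any library. Otof, needed for vesicle release in hair cells, was at 450.2, 408.1 and 579.1 CPM in KO and 493.4, 434.9 and 416.3 CPM in Het libraries, with overlap. Nhlh1, Slc7a14, Calb2, Shtn1 and Dnajc5b overlapped between genotypes as well.

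Outer hair cell genes were counted beside them as the identity that Tbx2 opposes. All 11 on the list were tested and 0 passed over all genes. The median log2 fold change was -0.02, and 1 gene, Ocm, had an unadjusted p under 0.05 and was higher in KO, beside 3.19% of all tested genes. Ocm, the calcium buffer oncomodulin, had 15, 22 and 33 counts in KO and 0 in every Het library, and like Tbx2 it passed the filter through the KO libraries alone. Strip2, listed under an older symbol, was the single member with all KO libraries below all Het libraries, beside 6.1% of all tested genes. It was at 213.3, 190.8 and 200.6 CPM in KO against 331.7, 243.9 and 270.1 CPM in Het libraries. Insm1, Bcl11b, Ikzf2, Slc26a5 (the motor prestin), Chrna9, Chrna10, Lmod3 and Neurod6 overlapped between genotypes.

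Genes that work with Tbx2 and Tbx3 in other tissues were present in both genotypes. All 13 corepressor partners (the histone deacetylases Hdac1 and Hdac2, the heterochromatin protein Cbx3, members of the NuRD complex, and Egr1 and Rb1) were tested and 0 passed. Chd4, the ATPase of NuRD and the most abundant of them, was at 901.2, 1019 and 867.0 CPM in KO and 737.2, 827.2 and 986.8 CPM in Het libraries, with overlap. Hdac2 was the 1 partner of the 13 with an unadjusted p under 0.05, beside 5.34% of all tested genes. It was at 246.5, 207.8 and 105.5 CPM in KO and 300.5, 326.1 and 308.8 CPM in Het libraries. All its KO libraries lay below all Het libraries, as in 6.1% of all tested genes, so this single case is no result about the partners. Its log2 fold change was -0.74 (SE 0.30, edgeR, Benjamini-Hochberg adjusted p = 0.92).

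Of the 10 genes bound or repressed by Tbx2 or Tbx3 elsewhere, 6 were tested by edgeR, 0 passed and 0 had an unadjusted p under 0.05. Their log2 fold changes had a median of -0.06. Cdkn1a, the cell cycle inhibitor p21 and a repressed target of Tbx2, was at 181.7, 178.6 and 42.0 CPM in KO and 158.7, 102.5 and 135.2 CPM in Het libraries. KO replicate 3 was the low library, and the groups overlapped. Cdh1, the adhesion protein E-cadherin and the most abundant of the list, was at 1969, 2178 and 1958 CPM in KO and 2263, 2200 and 1988 CPM in Het libraries, with overlap. Cdkn2a, Gja5 and the pigment gene Tyrp1 had 0 counts in all 6 libraries.

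Tbx2 has T-box and other neighbours on chromosome 11, and 7 further genes counted in the files lie within 500 kb of it besides Tbx4. Upstream lie Ppm1d at 485.5 kb and Bcas3, whose end is 6.5 kb from Tbx2, together with the transcripts Bcas3os1 and Bcas3os2 inside Bcas3. Downstream lie Tbx4 at 44.5 kb, Brip1 at 216.2 kb, Ints2 at 368.7 kb and Med13 at 425.1 kb. Tbx4, next to Tbx2 and on the same strand, had 0 counts in every library. Brip1, on the minus strand from 86058138 to 86201193, was the gene of this stretch with the largest difference. The windows around the starts of Tbx4 and Brip1 (RefSeq, GRCm38.p6) hold 250 bases before the start and 50 from it on. Those 50 are in capitals. They are shown because Tbx4 is the T-box neighbour without counts and Brip1 the neighbour with the largest difference. The Brip1 window is chr11:86201144-86201443 on the minus strand and that of Tbx4 chr11:85896515-85896814 on the plus strand, at a start within the annotated gene.
Brip1: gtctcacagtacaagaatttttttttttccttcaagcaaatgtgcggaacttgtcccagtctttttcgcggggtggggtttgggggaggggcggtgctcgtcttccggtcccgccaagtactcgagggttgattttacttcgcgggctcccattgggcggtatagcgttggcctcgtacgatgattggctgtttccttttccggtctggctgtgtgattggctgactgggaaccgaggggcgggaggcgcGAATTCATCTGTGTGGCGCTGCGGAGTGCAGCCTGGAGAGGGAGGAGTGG
Tbx4: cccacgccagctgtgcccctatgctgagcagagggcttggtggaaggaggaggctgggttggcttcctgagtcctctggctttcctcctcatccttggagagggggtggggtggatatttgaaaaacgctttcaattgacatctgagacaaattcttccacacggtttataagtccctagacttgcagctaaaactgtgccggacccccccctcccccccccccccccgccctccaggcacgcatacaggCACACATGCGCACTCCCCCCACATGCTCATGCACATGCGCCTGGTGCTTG

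The core of the T-box element, GGTGTGA on either strand, occurs in neither window, and neither does the INSM1 consensus. Among 32851 such windows the first is found in 3.98% and the second in 0.374%. Neither motif was found in the windows of Bcas3, Ppm1d, Ints2 or Med13, nor in those of the 13 T-box family genes that matched the sequence set, 6 of them among the 10 followed here. This says only that these letters are not in these windows. The sequence set held no window for Tbx2, Tbx3, Tbx5 or Tbx15, so the start of Tbx2 itself was not searched.

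Of the 5 tested neighbours of Tbx2, 0 passed over all genes and 1, Brip1, had an unadjusted p under 0.05, beside 5.34% of all tested genes. Brip1 too passed the filter through the KO libraries, since a single Het library reached the minimum count, and its test is given as a description. It averaged 195.5 ± 195.9 CPM in KO and 2.14 ± 3.29 CPM in Het libraries (SD, n = 3 each), with a log2 fold change of 6.49 (SE 1.16). That was 5.26 without KO replicate 3 and 9.52 without Het replicate 3. It did not pass (edgeR, Benjamini-Hochberg adjusted p = 0.415, with a range from 6.45e-34 to 0.988 over the alternatives), while it did with no filter on low counts and in the newer form of the edgeR fit (adjusted p = 0.0045). Bcas3, the nearest gene and a cytoskeletal regulator of cell migration, averaged 52.5 ± 16.7 CPM in KO and 54.9 ± 24.5 CPM in Het libraries (SD, n = 3 each), a log2 fold change of -0.06 (95% interval -1.11 to 0.98). Its groups overlapped.

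Ints2, a subunit of the Integrator complex, averaged 77.7 ± 39.2 CPM in KO and 62.9 ± 12.5 CPM in Het libraries (SD, n = 3 each), with overlap. Ppm1d, a phosphatase that acts on p53, averaged 57.7 ± 10.6 CPM in KO and 27.7 ± 21.9 CPM in Het libraries (SD, n = 3 each), a log2 fold change of 1.06 with a 95% interval from -0.25 to 2.36. Med13, a subunit of the Mediator complex, averaged 979.0 ± 221.7 CPM in KO and 770.0 ± 48.2 CPM in Het libraries (SD, n = 3 each) without overlap, a log2 fold change of 0.35 with an interval from -0.08 to 0.77. Thus 2 of the 5 neighbours, Brip1 and Med13, had all KO libraries above all Het libraries, beside the 5.08% of all tested genes. Around all 10 T-box genes, 69 genes within 500 kb were tested and 0 passed. Of them, 6 had all KO libraries above all Het libraries and 5 had all below, beside 5.08% and 6.1% of all tested genes. Their median log2 fold change was 0.10.

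**Figure D4:**
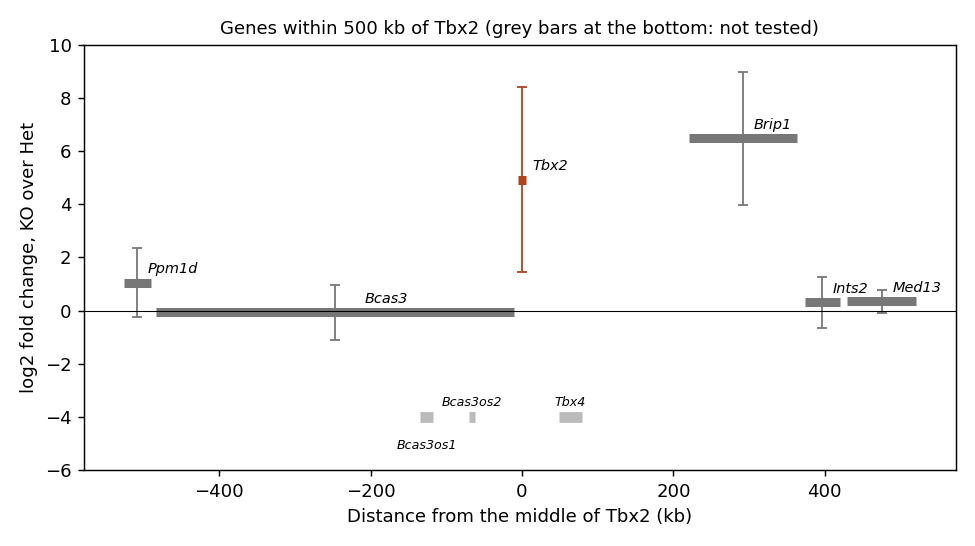
Log2 fold change, KO over Het, of Tbx2 and of the genes within 500 kb of it, drawn at their distance from the middle of Tbx2 in kb (thick bars, gene bodies; thin bars, 95% intervals). Tbx2 (4.92) and Brip1 (6.49) stand above their neighbours, which lie between -0.06 and 1.06; genes too low to test are the grey bars at the bottom.

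The tested genes whose course over the 6 libraries was most like that of Tbx2 were all low in abundance. Likeness was the root mean square difference of log2 CPM, each gene centred on its own mean, with a prior count of 2. In order they were Maff, a small Maf transcription factor (0.496), the noncoding E130018N17Rik (0.576), Slc8a3, a sodium-calcium exchanger (0.762), Ocm (0.811) and Sardh, the mitochondrial sarcosine dehydrogenase (0.817). All 5 had every KO library above every Het library, which the choice by likeness to Tbx2 fixes, so no test is given. Maff had 11, 78 and 29 counts in KO and 2, 0 and 5 in Het libraries, with KO replicate 2 highest as for Tbx2. E130018N17Rik had 26, 65 and 34 counts in KO and 0 in each Het library, and Sardh had 25, 109 and 58 counts in KO and 11, 0 and 4 in Het libraries.

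Slc8a3 had 67, 47 and 45 counts in KO and 0, 0 and 3 in Het libraries, so its KO libraries were more even than those of Tbx2. Antisense transcripts overlap Slc8a3 and Sardh, whose counts are uncertain if strand was not used, and the noncoding Gm14235 overlaps E130018N17Rik on its own strand. Brip1 was unlike Tbx2 by this measure (2.22, rank 4052 of 11713 genes), since its differences are larger and KO replicate 3 is its highest library.

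**Figure D5:**
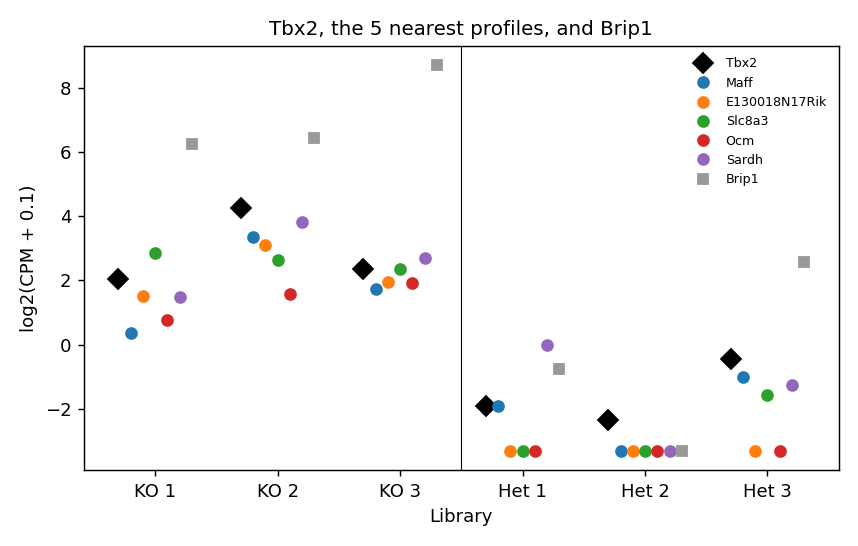
Log2(CPM + 0.1) of Tbx2, of the 5 genes with the most similar course and of Brip1 in each library (points, offset sideways for clarity). Tbx2 and each of the 5 genes are higher in every KO library than in any Het library. Brip1 lies above them all in the KO libraries and in Het replicate 3, peaks in KO replicate 3 and has 0 counts in Het replicate 2.

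Other cell types that can carry Tbx2 were followed through their markers. Melanocytes are known to express it, and their defining genes Dct, Tyr and Mlana had 0 counts in all 6 libraries, with Pmel at no more than 4. The 6 melanocyte markers summed to 28.0 to 54.6 CPM in KO and 31.5 to 108.0 CPM in Het libraries, mostly from Sox10, which glia and otic epithelium share. Mitf, the melanocyte master regulator, had 0, 0 and 1 counts in KO and 101, 5 and 19 counts in Het libraries, lower in all 3 KO libraries. The ridge, whose sums are given above, overlapped between genotypes, and none of its 5 tested markers passed. The 12 supporting cell markers summed to 1573, 1377 and 2137 CPM in KO and 1279, 1431 and 1595 CPM in Het libraries, 0 passed, and KO replicate 2, the library with the most Tbx2, was the lowest KO library. The 6 markers of the lateral wall and roof summed to 0.223 to 1.17 CPM in KO and 6.27 to 38.9 CPM in Het libraries, without overlap, and Kcne1 was at 0 in all.

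Of the remaining lists, the neuron, immune and endothelial sums overlapped between genotypes. The 8 neuron markers ran from 927 to 1577 CPM in KO, highest in replicate 2, and from 969 to 1150 CPM in Het libraries, and the 6 immune markers from 37.6 to 136.0 CPM in KO and 86.3 to 120.7 CPM in Het libraries, with Cd3e at 0 in all. The 5 endothelial markers reached at most 30.0 CPM in KO and 25.8 CPM in Het libraries. The 6 glial markers ran from 164.9 to 173.2 CPM in KO and 112.5 to 164.7 CPM in Het libraries, narrowly without overlap. The 5 erythroid markers, without overlap, ran from 2.67 to 6.19 CPM in KO and 0.562 to 1.22 CPM in Het libraries. Of these 5, 3 were at 0 in all libraries, Hba-a1 and Hbb-b1 among them. Single tested genes had all KO libraries above all Het libraries in 5.08% and below in 6.1%. No such share was computed for sums, that of the lateral wall and roof included. The most abundant markers were Myo6 (hair cell), Prox1 (supporting cell), Tecta (ridge), Bmp4 (lateral wall and roof), Nefm (neuron), Cnp (glia), Laptm5 (immune), Egfl7 (endothelium) and Alas2 (erythroid). No marker on any list passed by edgeR. The part of any of these cell types in the level of Tbx2 was not tested.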

How the data were processed

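RNA of sorted outer hair cells was sequenced after removal of ribosomal RNA, with random-hexamer priming and amplification, in 6 libraries. The authors deposited raw read counts per gene symbol. Trimmomatic, STAR and HTSeq with GRCm38 (mm10) are named in the submitters' processing notes; their versions, the gene annotation and the strand setting: not given in the sources used here.

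Everything else was computed from those counts, in R 4.3.3. Genes were kept by filterByExpr (minimum count 10, minimum total 15; removed genes held 0.274% of counts), scaled by TMM and compared by genotype with edgeR 4.0.16 (quasi-likelihood F test, Benjamini-Hochberg over 11714 genes, threshold 0.05). The SE is the log2 fold change divided by the root of F. DESeq2 1.42.0 and limma-voom (limma 3.58.1) were alternatives, with other scalings, filters, fits, the replicate block and each library left out. The fit was tested on simulated data with a single common spread for all genes. That does not tell how the fit does for genes as uneven between libraries as Tbx2. Positions and exon lengths came from GENCODE M21 on GRCm38, matched for 22825 symbols, and 3 list names were matched by synonym. Named were the T-box, inner and outer hair cell lists and the most abundant or passing gene of the partner and target lists. Neighbours of Tbx2 and the 5 nearest profiles were named too. Markers of other cell types are given mainly as sums. Epyc, Otoa, Calb1, Gjb6, Prrx1, the collagen genes, Twist1, Mitf, Pmel, Atoh1, Gfi1, Lhx3, Hdac2, Cdkn1a and the markers at 0 were chosen after their values were seen. Some list genes are not reported here by name. Members and lists were chosen with earlier results of these data known.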

Additional observations from a re-analysis of the deposited data

How the results depend on the processing

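Tbx2 kept its direction and stayed short of the threshold in all 16 alternatives, with log2 fold changes from 3.89 to 6.06 with 1 library left out and 4.68 to 4.98 otherwise. Since its groups did not overlap, leaving out 1 library could not turn the direction, so the kept direction is no added evidence. Its adjusted p ran from 0.106 (DESeq2) to 1.0. The difference of mean CPM of Tbx2 ran from 4.24 to 11.8 with 1 library left out and that of the T-box sum from 2.26 to 9.86. The count of genes past the threshold, 0 with edgeR, was 67 with no filter, 26 with DESeq2, 1 in the newer form of the fit and 1 with the replicate block, and 0 in every fit with 1 library left out; Tbx2 was in none of these sets, and the cause was not tested. With the replicate block Tbx2 stood at 4.83 (SE 1.99), and Brip1 passed (adjusted p = 0.000504), as it did in the newer form of the fit (0.0045). The labels give both genotypes replicate numbers 1 to 3 and do not tell whether same-numbered libraries belong together. Deviations of same-numbered libraries from their group means correlated at 0.0101, 0.0073 and 0.0144. These correlations over all tested genes showed no pairing by number, but they cannot exclude one that touches only some genes. With 1 library left out, Mga ran from -0.15 to 0.10, Bcas3 from -0.35 to 0.36 and Ints2 from -0.19 to 0.53, and Bcas3 was 0.026 under limma-voom. Windows of 250 or 1000 kb left 1 neighbour of Tbx2 at an unadjusted p under 0.05. Depth limits every T-box gene but Mga: the Het level of Tbx2 rests on 11 counts, with 2 of 3 Het libraries under 3 counts, so its fold is imprecise.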

Other observations

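Among the 69 tested genes near a T-box gene, 3 besides Brip1 had an unadjusted p under 0.05 in edgeR's quasi-likelihood test, a share near the 5.34% of all tested genes, so the count is no result about these regions. None passed over all genes, and all 3 were picked with their values in view. Wars2, a mitochondrial tryptophan-tRNA ligase gene 1.2 kb from the scarcely counted Tbx15, was at 29.3, 10.3 and 18.0 CPM in KO and 54.7, 41.0 and 98.4 CPM in Het libraries, lower in 3 of 3 KO libraries. Arvcf, a catenin gene 173.9 kb from the uncounted Tbx1, was at 82.7, 79.0 and 109.9 CPM in KO and 37.4, 41.9 and 32.6 CPM in Het libraries, higher in 3 of 3. Mpzl1, a membrane glycoprotein gene 431.5 kb from the uncounted Tbx19, had 288, 116 and 9 counts in KO and 608, 951 and 865 counts in Het libraries, lower in 3 of 3.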
